A study of Mus musculus with 24 samples.

Results

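Among the 22165 genes counted, the Toll-like receptors other than Tlr4 are 8: Tlr1, Tlr2, Tlr3, Tlr6, Tlr7, Tlr8, Tlr9 and Tlr13. They were taken by gene symbol and by no measured value, and all 8 had enough reads to be tested. Tlr4, the receptor for the lipopolysaccharide (LPS) used in the study, is described here beside the other genes of the pathway. Tlr5, Tlr11 and Tlr12, the remaining mouse family members on the lists used, had at most 17 reads in any library and were not tested.

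Toll-like receptors are membrane proteins with which macrophages recognise parts of microbes. TLR2 sits at the cell surface and binds bacterial lipoproteins as a heterodimer with TLR1 or TLR6, whereas TLR3, TLR7, TLR8, TLR9 and TLR13 sit in endosomes and bind nucleic acids. Most of them signal through the adaptor MyD88 to NF-kappaB, TLR3 signals through TRIF, and the endosomal receptors need the chaperone UNC93B1 to leave the endoplasmic reticulum.

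The study asked how loss of Irg1 (Acod1), the enzyme that makes itaconate, alters the response of mouse macrophages to LPS. Bone marrow-derived macrophages (BMDMs) were grown for 7 days in 20 ng/mL M-CSF from C57BL/6N wild-type (WT) mice and Irg1-/- mice aged 8 to 20 weeks by the labels (the study's methods give a wider range for its cell experiments as a whole). In each genotype, cells were left untreated (Unstim.), given 100 ng/ml LPS for 24 h (LPS 24h), given that first dose and then, after a wash and 1 h of rest, LPS again for 3 h (LPS 24h->LPS 3h, tolerized), or taken through the same steps without the first dose (LPS 3h, non-tolerized). No wash or rest is given for Unstim. and LPS 24h cells, and no group had these steps without LPS after them. Where LPS 3h or tolerized cells are compared with those cells, LPS and these steps cannot be told apart. The 8 groups had 3 libraries each, and the labels do not say whether these came from separate mice, so the p-values measure the spread between these cultures, which may be partly technical.

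Libraries held 3927378 to 20430359 reads on genes (median 11539056). Acod1 averaged 22181 normalized CPM (reads scaled to a common library size) in WT LPS 3h cells and 12.0 in Irg1-/- LPS 3h cells (edgeR quasi-likelihood test, log2 difference -10.82, Benjamini-Hochberg adjusted p = 2.7e-12), and no Irg1-/- library exceeded 26.4 CPM. The summed level of 6 macrophage markers ranged from 1671 to 3802 CPM over the 24 libraries, and that of 4 B cell markers reached 2.45, of 3 conventional dendritic cell markers 2.99 and of 3 plasmacytoid dendritic cell markers 10.8 CPM. Neutrophil markers summed to 6.26 to 25.5 CPM in Unstim. and LPS 3h libraries and to 0 to 2.41 CPM in LPS 24h and tolerized libraries. Plasmacytoid dendritic cell markers, of which 1 had no reads in any library, were at 0.561 to 1.01 CPM in LPS 24h libraries. In tolerized libraries they were at 2.54 to 3.80 CPM (WT) and 1.75 to 4.79 CPM (Irg1-/-). T cell markers reached 1.70 and stromal markers ranged from 23.2 to 119 CPM, lowest after 24 h or restimulation. The WT LPS 24h replicate 3 library stood apart on the third principal component (79.6, with the others from -37.4 to 29.5). For some values that rest on it, the value without it is also given, and for others only the loss of the call. Whether such cells contributed to any receptor's level was not tested, and in cultures measured in bulk, fewer cells of a type and less RNA per cell cannot be told apart. All 6 Unstim. libraries share library pool 4 (a number read from a prefix of the labels). The LPS-treated WT libraries lie in pools 1, 2 and 4, and no LPS-treated Irg1-/- library lies in pool 4. Pool and treatment therefore cannot be told apart in Irg1-/- comparisons with Unstim. cells. The same holds for LPS 24h against LPS 3h in Irg1-/- cells, whose libraries lie in pool 1 and in pools 2 and 3.

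In the mouse genome (GRCm38), Tlr1 (chromosome 5, 64924679 to 64933563, minus strand) and Tlr6 (chromosome 5, 64952031 to 64960097, minus strand) are neighbours 18468 bases apart, and Tlr7 (chromosome X, 167304929 to 167330558, minus strand) and Tlr8 (chromosome X, 167242696 to 167264329, minus strand) lie 40600 bases apart. Tlr2 is at chromosome 3, 83836272 to 83841767 (minus strand), Tlr3 at chromosome 8, 45395665 to 45411080 (minus strand), Tlr9 at chromosome 9, 106222598 to 106226883 (plus strand) and Tlr13 at chromosome X, 106143204 to 106160493 (plus strand). Of the 50-base stretches in annotated Tlr1 transcripts, 512 of 3332 also occur in another gene, 454 of them in Tlr6, so part of the reads of this pair could be assigned to either gene. Within the last 500 bases, where 3' end libraries place their reads, Tlr1 and Tlr6 share no stretch with each other, although 58 of 822 Tlr1 stretches occur in other genes. The remaining 6 receptors share none. An antisense gene, Gm45542, overlaps Tlr3, and without a known strand setting reads of both could not be told apart.

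RefSeq promoter windows (GRCm38.p6, 250 bases before to 50 after a transcript start) exist in the table used for 7 of the 8 receptors. The windows below belong to the receptors whose transcripts moved most in opposite directions within 3 h: Tlr2 and Tlr3, which were higher, and Tlr9 and Tlr13, which were lower. Capitals mark matches, on either strand, to an NF-kappaB-like motif (GGG and CC with any 5 bases between them) or to TGANTCA (AP-1-like). They lie at chr3:83841559-83841858 (minus strand), chr8:45410331-45410630 (minus strand), chr9:106222348-106222647 (plus strand) and chrX:106143025-106143324 (plus strand).
Tlr2: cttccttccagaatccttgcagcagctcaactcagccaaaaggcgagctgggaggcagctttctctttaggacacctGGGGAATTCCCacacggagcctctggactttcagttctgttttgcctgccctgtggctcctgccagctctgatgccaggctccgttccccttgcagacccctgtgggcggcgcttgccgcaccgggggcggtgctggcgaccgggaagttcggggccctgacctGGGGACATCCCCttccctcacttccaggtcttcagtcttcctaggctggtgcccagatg
Tlr3: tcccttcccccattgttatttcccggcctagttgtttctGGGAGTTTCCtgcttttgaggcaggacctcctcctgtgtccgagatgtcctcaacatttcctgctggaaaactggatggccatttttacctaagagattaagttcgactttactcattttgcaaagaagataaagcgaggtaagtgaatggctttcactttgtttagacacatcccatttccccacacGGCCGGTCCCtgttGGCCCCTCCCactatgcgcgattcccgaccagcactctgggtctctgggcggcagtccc
Tlr9: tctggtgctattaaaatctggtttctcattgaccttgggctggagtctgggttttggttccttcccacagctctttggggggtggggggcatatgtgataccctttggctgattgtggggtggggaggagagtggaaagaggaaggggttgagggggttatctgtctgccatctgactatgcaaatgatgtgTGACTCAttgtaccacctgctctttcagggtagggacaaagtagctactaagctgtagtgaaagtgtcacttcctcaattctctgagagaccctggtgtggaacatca
Tlr13: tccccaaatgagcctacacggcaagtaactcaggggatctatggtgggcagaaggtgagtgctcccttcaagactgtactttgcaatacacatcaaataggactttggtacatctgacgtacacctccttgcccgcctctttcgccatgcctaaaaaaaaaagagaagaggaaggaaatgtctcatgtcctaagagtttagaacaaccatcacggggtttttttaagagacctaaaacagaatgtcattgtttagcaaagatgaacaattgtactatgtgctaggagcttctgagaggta
The Tlr2 window holds 5 NF-kappaB-like matches, which overlap each other in 2 places that begin 173 and 9 bases before the start. Tlr3 holds 3 such matches, Tlr9 a TGACTCA that begins 58 bases before the start, and Tlr13 no match to either motif. The third motif searched, of the interferon-stimulated response element kind (a pair of GAAA with any 2 bases between them), matched 2 overlapping places in one Tlr6 window, the other Tlr6 window held an NF-kappaB-like match, and neither the Tlr1 windows nor the Tlr8 window held any of the 3 motifs. Of all 32851 mouse promoter windows, 50.79% hold the NF-kappaB-like motif, 7.81% TGANTCA and 3.44% the GAAA pair, so a match is a description of the letters and not a sign of binding.

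The family split in both genotypes. At 3 h after a first dose of LPS, Tlr2, Tlr3 and Tlr1 were higher than in Unstim. cells and Tlr9 and Tlr13 lower. After 24 h Tlr2 was back near its unstimulated level, with Tlr1 and Tlr3 still above theirs. In Irg1-/- cells Tlr3 was by then lower than at 3 h. After a second dose Tlr2 was higher again, at a lower level than after the first. In the WT, 3 h of LPS raised 3 and lowered 2 of the 8 receptors (edgeR quasi-likelihood test over 11878 genes, adjusted p under 0.05), where 32% of all genes passed, 15.8% higher and 16.3% lower. In Irg1-/- cells, 5 were higher and 2 lower, where 35.9% of all genes passed, 17% higher and 18.9% lower. The Irg1-/- count fell to 3 with library pool as a term in the fit, when Tlr1, Tlr6, Tlr7 and Tlr9 no longer passed. Shares of all genes, here and below, are those of the main fit. The share passing under each alternative or left-out library is not given. Calls lost there therefore cannot be read as particular to the receptors or the listed genes.

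After 24 h of LPS, 3 receptors were higher and 1 lower than in Unstim. cells in the WT (16.2% of all genes passed, 9.25% higher and 6.98% lower), and 2 were higher and none lower in Irg1-/- cells (13.7% passed, 7.31% higher and 6.38% lower). These counts rested on single libraries. The WT count was 2 without LPS 24h replicate 3 or without Unstim. replicate 1, when Tlr7 and Tlr9 no longer passed. The Irg1-/- count was 0 without LPS 24h replicate 1, and 1 without LPS 24h replicate 2, without any of the Unstim. replicates 1, 2 and 3, with library pool as a term, or with only the compared groups fitted. Against LPS 3h, LPS 24h cells had 2 receptors higher and 3 lower in the WT (32.3% of all genes passed, 16.8% higher and 15.5% lower) and the same counts in Irg1-/- cells (35% passed, 18.2% higher and 16.9% lower), the latter falling to 3 in all with library pool as a term. In both genotypes Tlr9 and Tlr13 were higher and Tlr2 and Tlr7 lower. The remaining receptor that was lower was Tlr8 in the WT and Tlr3 in Irg1-/- cells.

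Restimulation of tolerized cells, compared with LPS 24h, moved few receptors and few genes. In the WT 1 receptor passed (Tlr2, higher, with 3.99% of all genes passing, 2.46% higher and 1.53% lower), and in Irg1-/- cells 2 passed (Tlr2 higher and Tlr8 lower, with 5.14% passing, 3.44% higher and 1.7% lower). The Irg1-/- count was 1 without LPS 24h replicate 2, when Tlr8 did not pass, and 3 with only the compared groups fitted, when Tlr1 passed. The WT count was 2 without LPS 24h replicate 1 or with the DESeq2 Wald test, both of which added Tlr3, and 0 with only the compared groups fitted. Compared with cells meeting LPS for the first time (LPS 3h), tolerized cells had 2 receptors higher and 4 lower in the WT (25.5% of all genes passed, 12.4% higher and 13.1% lower) and in Irg1-/- cells (27.2% passed, 13.1% higher and 14.1% lower), the latter falling to 4 in all with library pool as a term, when Tlr7 and Tlr9 no longer passed. These comparisons share groups, so their counts are not independent of each other.

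**Figure D1:**
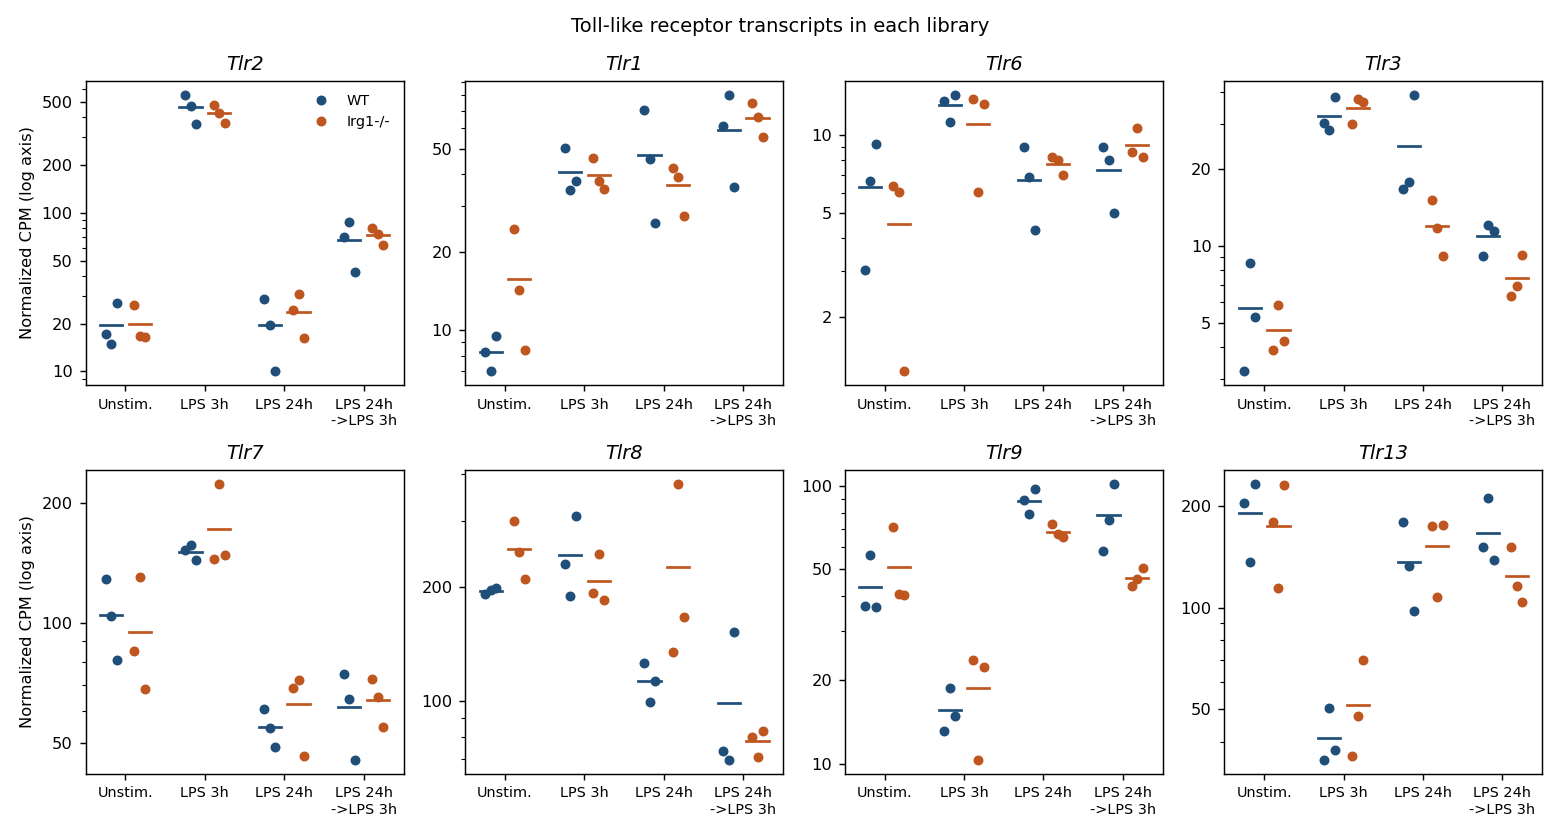
Normalized CPM (log axis) of each receptor in each of the 24 libraries by treatment, with WT in blue and Irg1-/- in orange; points are libraries and bars group means. Tlr2 at LPS 3h lies between 361 and 555 CPM in all 6 libraries, and Tlr9 and Tlr13 at LPS 3h lie below every Unstim. library.

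**Figure D2:**
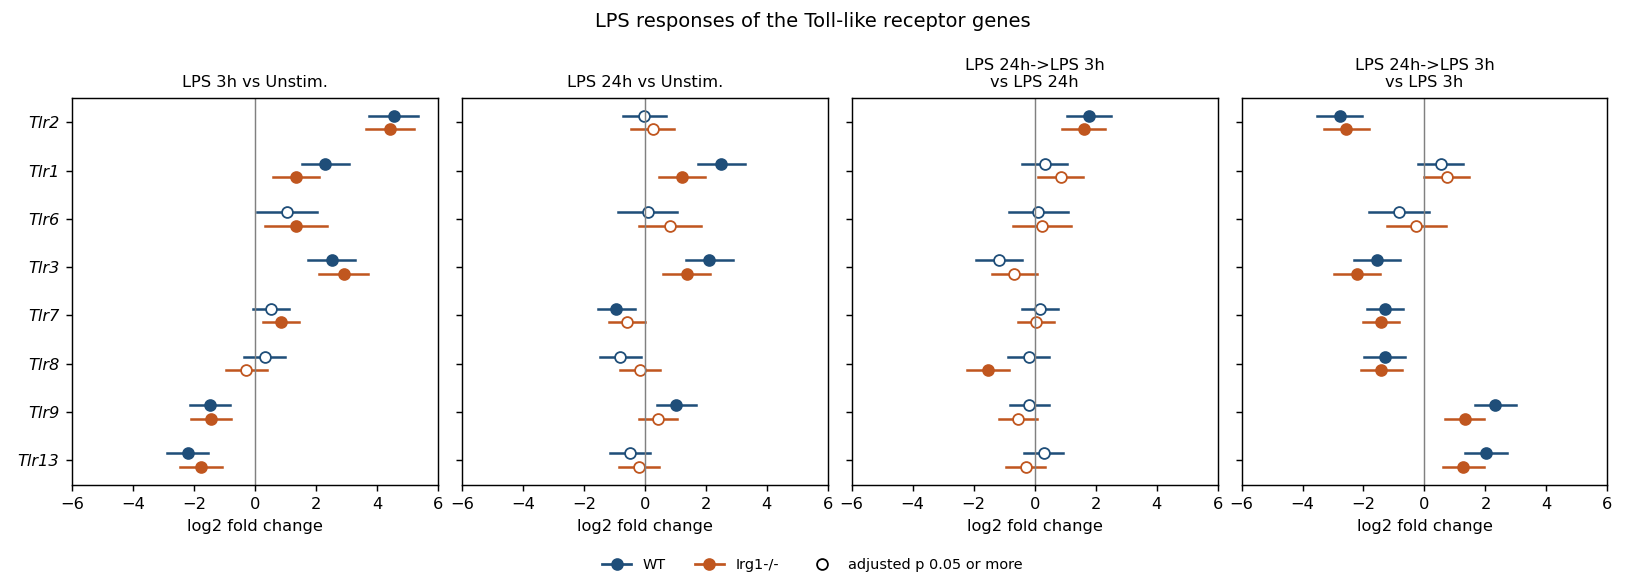
Log2 fold change (point) with its 95% confidence interval (line) of each receptor in 4 treatment comparisons, WT in blue and Irg1-/- in orange; filled points passed an adjusted p of 0.05. Tlr2 moved by 4.55 (WT) and 4.43 (Irg1-/-) at 3 h and lay near 0 at 24 h, and Tlr9 and Tlr13 are left of 0 at 3 h and right of 0 in tolerized against non-tolerized cells.

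Tlr2, the shared partner of the surface heterodimers, had the widest range of the 8, 23.7-fold between its lowest and highest group means. In the WT it stood at 17.3, 14.8 and 27.1 CPM in Unstim. cells and at 555, 471 and 361 CPM at LPS 3h. In Irg1-/- cells the values were 26.2, 16.8 and 16.5 CPM and then 482, 428 and 367 CPM. Every LPS 3h library was thus above every Unstim. library, and the rise was 23.4-fold in the WT (log2 4.55 ± 0.39 SE, adjusted p = 6.3e-11) and 21.5-fold in Irg1-/- cells (log2 4.43 ± 0.39, adjusted p = 1.1e-10).

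At LPS 24h, Tlr2 had returned to 28.7, 19.8 and 10.0 CPM in the WT and 24.3, 30.9 and 16.2 CPM in Irg1-/- cells, values that overlap Unstim. cells. Within pool 4 the WT difference was log2 -0.92, from 1 LPS 24h and 3 Unstim. libraries. The difference from Unstim. was not past the threshold, with log2 -0.02 (95% confidence interval -0.73 to 0.68) in the WT and 0.27 (-0.44 to 0.97) in Irg1-/- cells. Restimulation brought Tlr2 to 70.7, 88.1 and 42.5 CPM in the WT and to 80.2, 73.6 and 62.7 CPM in Irg1-/- cells, above every LPS 24h library of the same genotype. That was a rise of 3.44-fold in the WT (log2 1.78 ± 0.35, adjusted p = 0.0019) and 3.04-fold in Irg1-/- cells (log2 1.60 ± 0.35, adjusted p = 0.0035). With only the compared groups fitted, the WT rise had an adjusted p of 0.074.

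The restimulated level of Tlr2 remained below that of the first response in all libraries. Compared with LPS 3h it was 6.89-fold lower in the WT (log2 -2.78 ± 0.36, adjusted p = 9.0e-07) and 5.89-fold lower in Irg1-/- cells (log2 -2.56 ± 0.36, adjusted p = 2.4e-06). Ordered by level, Tlr2 therefore ran LPS 3h, LPS 24h->LPS 3h, then LPS 24h and Unstim. together in both genotypes. Within pool 4, which holds an LPS 3h library and all Unstim. libraries of the WT, the 3 h difference was log2 4.23.

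Tlr1, whose product joins TLR2 to bind triacylated lipoproteins, rose and stayed up. WT cells had 8.25, 6.97 and 9.51 CPM when unstimulated, 50.1, 34.7 and 37.5 CPM at LPS 3h and 70.1, 45.7 and 25.8 CPM at LPS 24h. Every LPS-treated WT library was above every Unstim. one, a rise of 4.92-fold at 3 h (log2 2.30 ± 0.38, adjusted p = 1.5e-05) and 5.70-fold at 24 h (log2 2.51 ± 0.38, adjusted p = 9.0e-06). Tolerized WT cells held 61.0, 80.4 and 35.5 CPM, which overlapped both LPS 3h and LPS 24h.

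Unstimulated Irg1-/- cells had 24.6, 14.3 and 8.40 CPM of Tlr1, of which replicates 1 and 2 lay above all WT libraries and replicate 3 among them. Their LPS 3h libraries had 46.0, 37.6 and 35.0 CPM, a 2.53-fold rise (log2 1.34 ± 0.37, adjusted p = 0.0053), which had an adjusted p of 0.32 with library pool as a term. At LPS 24h the values were 42.0, 39.0 and 27.4 CPM, a 2.31-fold rise (log2 1.21 ± 0.37, adjusted p = 0.024), and leaving out a library moved that adjusted p between 0.0042 and 0.13, with the call lost without LPS 24h replicate 1 or 2 or Unstim. replicate 2 or 3. Tolerized Irg1-/- cells had 74.9, 66.3 and 55.2 CPM, above every LPS 24h library, although that difference did not pass (log2 0.86 ± 0.36, adjusted p = 0.21) except with only the compared groups fitted (adjusted p = 0.043).

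Tlr6, the partner of TLR2 for diacylated lipoproteins, was the most thinly covered of the 8, with 23 to 189 reads a library. WT values were 3.03, 6.68 and 9.22 CPM in Unstim. cells and 13.5, 11.3 and 14.3 CPM at LPS 3h, which do not overlap, but the difference did not pass (log2 1.04 ± 0.48, adjusted p = 0.097). In Irg1-/- cells they were 6.39, 6.03 and 1.23 CPM and then 13.8, 6.03 and 13.2 CPM, where the call (log2 1.33 ± 0.50, adjusted p = 0.037) was made between groups that overlap. It was lost without LPS 3h replicate 1 or 3, without Unstim. replicate 3 (adjusted p = 0.16), with library pool as a term (0.25) and with only the compared groups fitted (0.10). The other 12 libraries ranged from 4.30 to 10.7 CPM.

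Among the endosomal receptors, Tlr3, the sensor of double-stranded RNA, rose with a first dose of LPS and was lower in tolerized cells. In both genotypes every tolerized library was still above every Unstim. one, a difference that was not tested. The WT libraries had 3.22, 8.59 and 5.27 CPM in Unstim. cells, 30.3, 28.3 and 38.2 CPM at LPS 3h, 16.7, 17.8 and 39.1 CPM at LPS 24h and 9.11, 12.1 and 11.5 CPM after restimulation. All of the LPS 3h and LPS 24h libraries were above all of the Unstim. ones, and the LPS 24h replicate 3 library (pool 4) stood far above the other 2. The rise was 5.70-fold at 3 h (log2 2.51 ± 0.38, adjusted p = 3.5e-06) and 4.34-fold at 24 h (log2 2.12 ± 0.37, adjusted p = 8.0e-05), the latter 1.55 on the log2 scale without LPS 24h replicate 3.

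Irg1-/- cells had 3.90, 5.84 and 4.23 CPM of Tlr3 in Unstim., 30.0, 37.8 and 36.6 CPM at LPS 3h, 15.1, 11.8 and 9.09 CPM at LPS 24h and 6.35, 6.96 and 9.19 CPM after restimulation. The 3 h rise was 7.52-fold (log2 2.91 ± 0.39, adjusted p = 5.2e-07). The 24 h rise was 2.59-fold (log2 1.37 ± 0.38, adjusted p = 0.012), with adjusted p of 0.068 without LPS 24h replicate 1 and 0.066 without Unstim. replicate 1. From LPS 3h to LPS 24h Tlr3 fell in these cells by log2 -1.54 ± 0.36 (adjusted p = 0.0013, or 0.099 with library pool as a term). In the WT that difference did not pass (log2 -0.39 ± 0.36, adjusted p = 0.42). Tolerized cells were below LPS 3h cells in every library, by log2 -1.56 ± 0.37 in the WT (adjusted p = 0.0018) and -2.21 ± 0.37 in Irg1-/- cells (adjusted p = 3.7e-05).

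Restimulation did not raise Tlr3. Against LPS 24h the log2 difference was -1.17 ± 0.36 in the WT (adjusted p = 0.064) and -0.67 ± 0.36 in Irg1-/- cells (adjusted p = 0.38). Leaving out libraries moved the WT adjusted p from 0.036 (without LPS 24h replicate 1) to 0.50 (log2 -0.61).

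Tlr7 and Tlr8, neighbouring genes on the X chromosome whose products sense single-stranded RNA, were lower in tolerized cells than after the first dose. Tlr7 in the WT had 129, 104 and 80.9 CPM in Unstim., 152, 157 and 143 CPM at LPS 3h, 60.7, 54.5 and 48.9 CPM at LPS 24h and 74.6, 64.5 and 45.4 CPM after restimulation. After scaling, the LPS 3h libraries were above all others and the LPS 24h and restimulated ones below every Unstim. library. The TMM scaling factors were 1.30 to 1.34 in the WT Unstim. libraries and 0.68 to 0.70 at LPS 3h. The place of LPS 3h above Unstim. depends on that scaling. The 3 h difference did not pass (log2 0.53 ± 0.29, adjusted p = 0.17), the 24 h fall from Unstim. did (log2 -0.93 ± 0.29, adjusted p = 0.024), and the fall from LPS 3h to LPS 24h was log2 -1.46 ± 0.30 (adjusted p = 0.00029). The 24 h fall from Unstim. lost its call without LPS 24h replicate 2 or 3 or Unstim. replicate 1 or 2 (highest adjusted p = 0.12).

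Tlr7 in Irg1-/- cells had 85.2, 131 and 68.3 CPM in Unstim., 144, 223 and 148 CPM at LPS 3h, 68.8, 72.1 and 46.6 CPM at LPS 24h and 72.3, 65.3 and 54.7 CPM after restimulation. The LPS 3h values were again the highest after scaling, and LPS 24h overlapped Unstim. in this genotype. The 3 h rise passed (log2 0.86 ± 0.29, adjusted p = 0.021) but not without LPS 3h replicate 2 (0.097), without Unstim. replicate 1 (0.055) or 3 (0.083), with library pool as a term (0.71) or with only the compared groups fitted (0.053). Tolerized cells were lower than LPS 3h cells by log2 -1.29 ± 0.29 in the WT (adjusted p = 0.0014) and -1.42 ± 0.29 in Irg1-/- cells (adjusted p = 0.00047, or 0.062 with library pool as a term).

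Tlr8 in the WT had 192, 197 and 199 CPM in Unstim., 231, 190.3 and 309.7 CPM at LPS 3h, 126, 99.0 and 113 CPM at LPS 24h and 73.4, 69.6 and 152 CPM after restimulation. LPS 24h lay below every Unstim. and LPS 3h library, and its fall from LPS 3h passed (log2 -1.11 ± 0.33, adjusted p = 0.010) while that from Unstim. did not (log2 -0.80 ± 0.33, adjusted p = 0.099). Tolerized WT cells were lower than LPS 3h cells by log2 -1.31 ± 0.33 (adjusted p = 0.0040), although replicate 3 of the tolerized cells stood well above the other 2.

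Tlr8 in Irg1-/- cells had 300.3, 248 and 211 CPM in Unstim., 193, 245 and 185 CPM at LPS 3h, 135, 378 and 167 CPM at LPS 24h and 80.1, 70.8 and 83.1 CPM after restimulation. The LPS 24h replicate 2 library, with 5389 reads of Tlr8, was the highest of all 24, so the LPS 24h group spans the Unstim. and LPS 3h groups. Tolerized cells were the lowest, by log2 -1.41 ± 0.33 against LPS 3h (adjusted p = 0.0018) and -1.54 ± 0.33 against LPS 24h (adjusted p = 0.0035). Without LPS 24h replicate 2 the latter was -0.92 and had an adjusted p of 0.14.

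Tlr9, the sensor of unmethylated CpG DNA, moved opposite to Tlr2 at 3 h. WT libraries had 36.9, 56.2 and 36.7 CPM in Unstim., 13.1, 18.7 and 14.8 CPM at LPS 3h, 88.7, 79.1 and 97.0 CPM at LPS 24h and 58.1, 75.0 and 102 CPM after restimulation. The groups at 3 h and 24 h lie on opposite sides of Unstim. with no overlap. The fall at 3 h was 2.77-fold (log2 -1.47 ± 0.32, adjusted p = 0.00056), the level at 24 h was 2.04-fold above Unstim. (log2 1.03 ± 0.31, adjusted p = 0.020), and LPS 24h exceeded LPS 3h 5.66-fold (log2 2.50 ± 0.33, adjusted p = 6.7e-07). The 24 h rise over Unstim. lost its call without LPS 24h replicate 3 or Unstim. replicate 1 or 3 (highest adjusted p = 0.11).

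Irg1-/- cells had 71.4, 40.7 and 40.5 CPM of Tlr9 in Unstim., 23.7, 10.3 and 22.3 CPM at LPS 3h, 73.0, 67.0 and 65.3 CPM at LPS 24h and 43.5, 46.0 and 50.8 CPM after restimulation. All LPS 3h libraries were below all others, a fall of 2.70-fold from Unstim. (log2 -1.43 ± 0.32, adjusted p = 0.00069, or 0.25 with library pool as a term). The 24 h groups overlapped Unstim. (log2 0.43 ± 0.31, adjusted p = 0.43). Tolerized cells stood above non-tolerized cells by log2 2.33 ± 0.33 in the WT (adjusted p = 3.4e-06) and 1.31 ± 0.32 in Irg1-/- cells (adjusted p = 0.0024, or 0.17 with library pool as a term).

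Tlr13, which in mice senses bacterial ribosomal RNA, had the deepest fall at 3 h. In the WT it went from 204, 136 and 233 CPM in Unstim. to 35.4, 50.3 and 37.9 CPM at LPS 3h, and stood at 179, 133 and 98.0 CPM at LPS 24h and 151, 211 and 139 CPM after restimulation. In Irg1-/- cells the values were 179.7, 115 and 231 CPM, then 36.4, 47.6 and 70.0 CPM, 174, 108 and 176 CPM, and 152, 116 and 104 CPM. In both genotypes the LPS 3h group lay below the other 3 groups with no overlap, and those 3 overlapped each other.

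The 3 h fall of Tlr13 was 4.64-fold in the WT (log2 -2.21 ± 0.33, adjusted p = 3.6e-06) and 3.42-fold in Irg1-/- cells (log2 -1.77 ± 0.33, adjusted p = 7.7e-05), and in pool 4 of the WT it was log2 -2.29. LPS 24h exceeded LPS 3h by log2 1.73 ± 0.33 in the WT (adjusted p = 0.00015) and 1.57 ± 0.33 in Irg1-/- cells (adjusted p = 0.00035). A second dose was not followed by a fall past the threshold. Against LPS 24h, tolerized cells differed by log2 0.29 ± 0.32 in the WT (adjusted p = 0.74) and -0.30 ± 0.32 in Irg1-/- cells (adjusted p = 0.76). Tolerized cells exceeded non-tolerized cells by log2 2.02 ± 0.33 in the WT (adjusted p = 3.1e-05) and 1.27 ± 0.33 in Irg1-/- cells (adjusted p = 0.0038).

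No receptor differed between Irg1-/- and WT cells past the threshold within any treatment. The 32 differences (8 receptors in 4 treatments) ran from log2 -1.04 to 1.01, with 95% confidence intervals whose half-widths had a median of 0.68 and a range of 0.59 to 1.00. By edgeR's quasi-likelihood test 0 passed an adjusted p of 0.05 in each of the 4 treatments, where 0.0421% of all genes passed in Unstim. cells (0.0337% higher and 0.00842% lower), 0.00842% at LPS 3h (0% higher and 0.00842% lower), 0.598% at LPS 24h (0.101% higher and 0.497% lower) and 0.118% after restimulation (0.0253% higher and 0.0926% lower). The DESeq2 Wald test also gave 0 in each, with no adjusted p for 1 of the 32 (Tlr6 at LPS 24h). By edgeR's test, 618 (Unstim.), 694 (LPS 3h), 1195 (LPS 24h) and 936 (restimulation) of all 11878 genes had an unadjusted p under 0.05. Among the receptors these were 1, 0, 2 and 1 of 8, or 4 of the 32.

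Those 4 were Tlr1 in Unstim. cells (log2 0.92 ± 0.37, adjusted p = 0.77), Tlr3 and Tlr8 at LPS 24h (log2 -1.04 ± 0.36, adjusted p = 0.23, and 1.01 ± 0.33, adjusted p = 0.19) and Tlr9 after restimulation (log2 -0.74 ± 0.31, adjusted p = 0.50). The genotypes did not overlap in 5 of the 32 differences: Tlr3, Tlr8 and Tlr9 as named, Tlr8 in Unstim. cells and Tlr9 at LPS 24h. The last pair had unadjusted p of 0.27 and 0.24 by edgeR's test. How many of all genes showed no overlap was not counted, so these 5 are a description and not a sign of a genotype difference. Each of the 4 leaned on few libraries: Tlr3 at LPS 24h was -0.50 without WT replicate 3, Tlr8 at LPS 24h was 0.45 without Irg1-/- replicate 2, Tlr1 in Unstim. cells was 0.44 without Irg1-/- replicate 1, and Tlr9 after restimulation was -0.47 without WT replicate 3. Within pool 1, which holds 1 WT and 3 Irg1-/- LPS 24h libraries, the differences were -0.50 for Tlr3 and 0.70 for Tlr8.

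The responses themselves were compared between genotypes in the same fit. None of 24 differences in response passed, also with the DESeq2 Wald test (0 of 8 receptors in each of 3 comparisons). Of all genes, 0.00842% passed for LPS 3h, 0.21% for LPS 24h (0.0253% higher and 0.185% lower) and 0.00842% for restimulation. By edgeR's test 2 of the 24 had an unadjusted p under 0.05. So did 675 (LPS 3h), 967 (LPS 24h) and 1029 (restimulation) of all 11878 genes. In simulated counts, the test of a difference in response recovered a smaller share of the changes put in than comparisons of a pair of groups did, and few of the smaller ones, so differences of this size could be missed with 3 libraries a group. The larger were a rise of Tlr1 at 24 h that was log2 -1.30 smaller in Irg1-/- cells (95% confidence interval -2.36 to -0.25, adjusted p = 0.46) and a change of Tlr8 on restimulation that was log2 -1.35 lower (-2.30 to -0.40, adjusted p = 0.35). The Tlr8 value was -0.77 without Irg1-/- LPS 24h replicate 2 and -0.85 without WT tolerized replicate 3, and the Tlr1 value -0.81 without Irg1-/- Unstim. replicate 1. For Tlr2 the difference in the 3 h response had an interval of log2 -1.10 to 0.87.

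**Figure D3:**
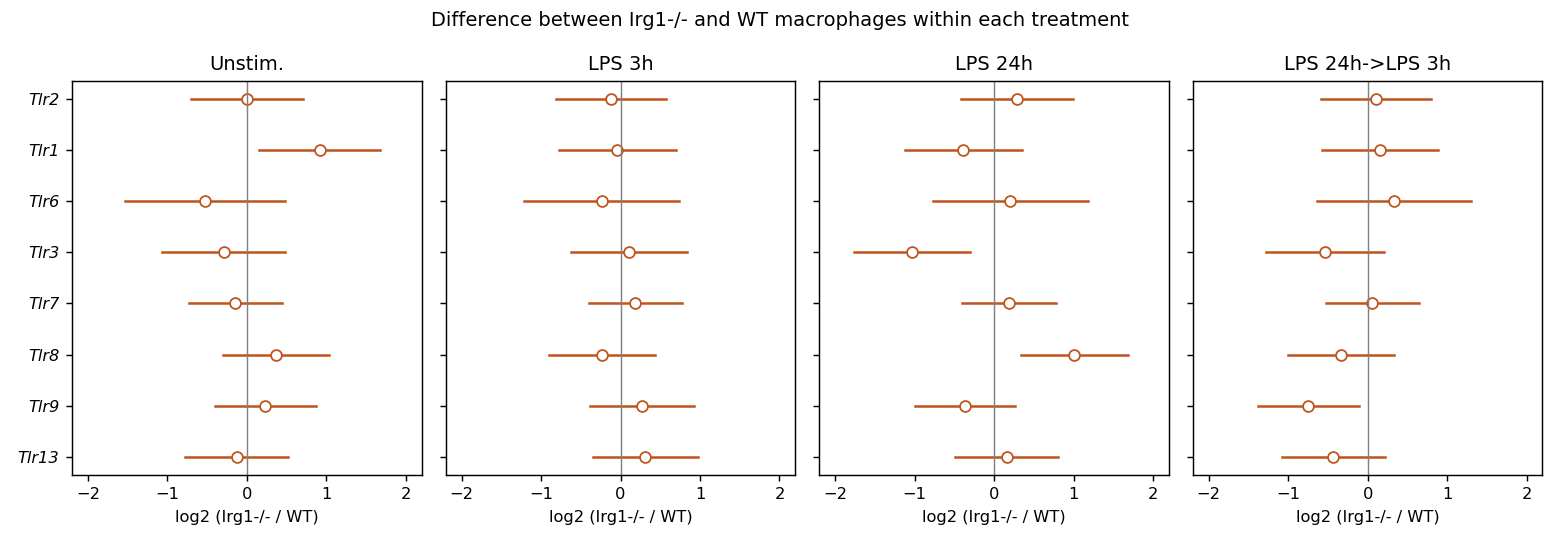
Log2 ratio of Irg1-/- to WT (point) with its 95% confidence interval (line) for each receptor within each treatment; open points did not pass an adjusted p of 0.05. All 32 points are open, between -1.04 and 1.01.

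The genes that act with these receptors were taken from 5 fixed lists. Tlr4, in the list of other receptors, fell at 3 h in the WT (log2 -1.49 ± 0.38, adjusted p = 0.0027) and in Irg1-/- cells (log2 -1.21 ± 0.38, adjusted p = 0.013), the latter call being lost with library pool as a term and without LPS 3h replicate 1 or 3 or Unstim. replicate 2 (log2 -1.70 to -0.90 on leaving out a library). Of 6 surface accessory proteins, 1 was higher at 3 h in the WT and 2 in Irg1-/- cells, where 15.8% and 17% of all genes were. The WT gene was Cd14, a co-receptor that hands LPS and lipoproteins to the receptors (log2 3.18 ± 0.36, adjusted p = 1.8e-08). Among Irg1-/- cells, Cd14 rose by log2 2.94 and Ly86, the partner of CD180, by 1.21 (adjusted p = 0.15 with library pool as a term). The median over the 6 was log2 0.35 in the WT, where that of all genes tested was -0.18.

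Of 6 genes for transport and folding of endosomal receptors, 2 rose and 2 fell at 3 h in each genotype, beside 32% of all genes past the threshold in the WT and 35.9% in Irg1-/- cells. The extremes were Slc15a3, a lysosomal histidine and peptide transporter (log2 2.18 in the WT and 1.73 in Irg1-/- cells), and Cnpy3, a chaperone of several Toll-like receptors (log2 -1.72 and -2.28). Among 8 tested endolysosomal proteases and nucleases, which trim endosomal receptors or their nucleic acid ligands, 1 rose and 2 fell in each genotype. Rnaset2b was highest (log2 4.60 and 3.00), with reads that a near-identical copy, Rnaset2a, could share, and Pld4 in the WT (log2 -1.16) and Dnase2a in Irg1-/- cells (log2 -0.93) were lowest. Both Cnpy3 and Rnaset2b lost their Irg1-/- calls with library pool as a term (adjusted p = 0.17 and 0.21). The Dnase2a call was lost under 6 of 7 alternative settings and without LPS 3h replicate 1, 2 or 3 or Unstim. replicate 1 or 3 (log2 -1.14 to -0.67), and the WT call of Cnpy3 without LPS 3h replicate 1 or 2 (log2 -1.82 to -1.52). The medians over the transport genes were log2 -0.07 in the WT and 0.08 in Irg1-/- cells, and over the enzymes -0.36 and -0.38, beside -0.18 and -0.20 over all genes.

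Of 12 adaptors, kinases and transcription factors, 5 rose and 1 fell at 3 h in the WT, and 5 rose and 2 fell in Irg1-/- cells (32% and 35.9% of all genes passed), with medians of log2 0.47 and 0.81. Irf7, which drives interferon genes downstream of TLR7 and TLR9, rose most (log2 5.25 ± 0.45, adjusted p = 4.5e-11, and 4.13 ± 0.42, adjusted p = 2.8e-09). Irak4, the kinase that MyD88 recruits, was lowest in the WT (log2 -1.30) and Irak1 in Irg1-/- cells (log2 -1.03). The Irak1 call was lost with library pool as a term (adjusted p = 0.33) and without LPS 3h replicate 2 or Unstim. replicate 1 (log2 -1.14 to -0.67). Myd88 itself rose by log2 2.81 and 2.78.

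At 24 h, 5 of the 12 were higher in the WT and 3 in Irg1-/- cells (9.25% and 7.31% of all genes were higher), from Irf7 (log2 6.09 and 4.99) to Myd88 (log2 1.20 and 1.28). Of the 8 endolysosomal enzymes 0 passed by edgeR's quasi-likelihood test in either genotype, and the DESeq2 Wald test called 0 and 2. By edgeR's test 2 in the WT and 3 in Irg1-/- cells had an unadjusted p under 0.05. So did 3246 (WT) and 2974 (Irg1-/-) of all 11878 genes. Compared with Unstim. cells, 1 of 6 accessory proteins, the scavenger receptor Cd36, was lower (log2 -0.86 and -1.49). Of the transport genes 2 were higher in each genotype, Slc15a3 (log2 1.59 and 0.79) with Hsp90b1, the partner chaperone of CNPY3, in the WT (log2 1.09) and with Cnpy3 in Irg1-/- cells (log2 2.43). The Cnpy3 value came from a single library. Irg1-/- LPS 24h libraries had 30.1, 31.3 and 326 CPM of Cnpy3, and its call against the WT (log2 2.49 ± 0.56, adjusted p = 0.028), the only call among these lists between genotypes, was log2 0.44 with an adjusted p of 0.92 without replicate 3, and its rise over Unstim. and its fall on restimulation were lost without that library too (log2 0.35 and -0.66). Leaving out a library also took the calls of Cd36 in the WT (without LPS 24h replicate 1 or 2 or Unstim. replicate 1, 2 or 3, log2 -0.99 to -0.73), Hsp90b1 (LPS 24h replicate 2 or 3, Unstim. replicate 2 or 3, 0.52 to 1.36), Slc15a3 in Irg1-/- cells (LPS 24h replicate 1 or 2, Unstim. replicate 1, 2 or 3, 0.59 to 0.97) and Myd88 in the WT (LPS 24h replicate 2, 1.00 to 1.39) and in Irg1-/- cells (LPS 24h replicate 1, 0.81 to 1.52). The call of Cnpy3 against the WT was also lost without WT replicate 2 or 3, with library pool as a term (adjusted p = 0.15) and with only the compared groups fitted (0.34). At 24 h against Unstim., library pool as a term ended the calls of Myd88 (adjusted p = 0.13 in the WT and 0.28 in Irg1-/- cells), Cd36 (0.23 and 0.11), Slc15a3 in Irg1-/- cells (0.41) and Cnpy3 in Irg1-/- cells (0.094). The WT call of Cd36 was also lost with no filter on low counts (0.064), and the calls of Slc15a3 in Irg1-/- cells and of Hsp90b1 in the WT under 4 of 7 alternative settings each.

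From LPS 3h to LPS 24h, 0 accessory genes were higher and 3 lower in the WT (0 and 2 in Irg1-/- cells), 3 transport genes higher and 1 lower (2 and 2), 2 enzymes higher and 1 lower (1 and 1) and 2 adaptors or factors higher and 3 lower (2 and 3), where 16.8% of all genes were higher and 15.5% lower in the WT (18.2% and 16.9% in Irg1-/- cells). Of all genes, 3.99% (WT) and 5.14% (Irg1-/-) passed on restimulation against LPS 24h and 25.5% and 27.2% against non-tolerized cells. On restimulation against LPS 24h, Cd14 rose in the WT (log2 1.63) and in Irg1-/- cells (log2 2.02), as did Irak2, a kinase of the MyD88 complex (log2 0.94 and 1.46), the cathepsin gene Ctss in the WT (log2 1.44) and the TLR4 adaptor Ticam2 in Irg1-/- cells (log2 1.75). Against non-tolerized cells, 2 accessory proteins were lower in each genotype, Cd14 (log2 -1.13 and -0.94) and Ly86 (log2 -1.13 and -1.02), and 2 transport genes higher, Cnpy3 (log2 2.02 and 1.94) and Slc15a4 (log2 1.03 and 1.14). Of the enzymes 2 were higher and 1 lower in the WT, with Ctss at log2 1.65 and Rnaset2b at -2.94, and 2 higher and 2 lower in Irg1-/- cells, with Pld4 at log2 1.15 and Rnaset2b at -2.72. The 12 adaptors and factors gave 3 higher and 3 lower in each genotype, from Traf3 in the WT (log2 2.38) and Ticam2 in Irg1-/- cells (log2 3.02) to Irf5 (log2 -1.14 and -1.67). Ctss rested on tolerized replicate 3, without which it was log2 0.47 against LPS 24h and 0.61 against LPS 3h, and its first call was also lost without LPS 24h replicate 2 or 3. Leaving out a library took the calls of Irak2 in the WT (LPS 24h replicate 2 or 3, tolerized replicate 1 or 3, log2 0.83 to 1.09), of Cd14 against non-tolerized cells in the WT (tolerized replicate 1, -1.53 to -0.95) and in Irg1-/- cells (tolerized replicate 2 or 3, LPS 3h replicate 1 or 2, -1.25 to -0.76), of Ly86 in the WT (LPS 3h replicate 3, -1.41 to -0.64) and in Irg1-/- cells (tolerized replicate 2 or 3, LPS 3h replicate 2, -1.18 to -0.84), of Slc15a4 in the WT (tolerized replicate 1 or 2, LPS 3h replicate 2 or 3, 0.73 to 1.27) and in Irg1-/- cells (tolerized replicate 2, LPS 3h replicate 2, 1.00 to 1.23) and of Cnpy3 in Irg1-/- cells (LPS 3h replicate 3, 1.70 to 2.23). Library pool as a term ended the Irg1-/- calls against non-tolerized cells of Cd14 (adjusted p = 0.28), Ly86 (0.31), Cnpy3 (0.35), Pld4 (0.17) and Slc15a4 (0.35) and the WT call of Ctss against LPS 24h (0.080). With only the compared groups fitted, the WT calls of Cd14 (0.11), Ctss (0.24) and Irak2 (0.24) against LPS 24h and of Slc15a4 against non-tolerized cells (0.075) were lost, and that of Irak2 also with no filter on low counts (0.089). Of the 53 values of list genes followed through the alternatives, which were chosen after seeing the data, 25 passed under every alternative and every left-out library, and library pool as a term ended 19 of the calls.

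**Figure D4:**
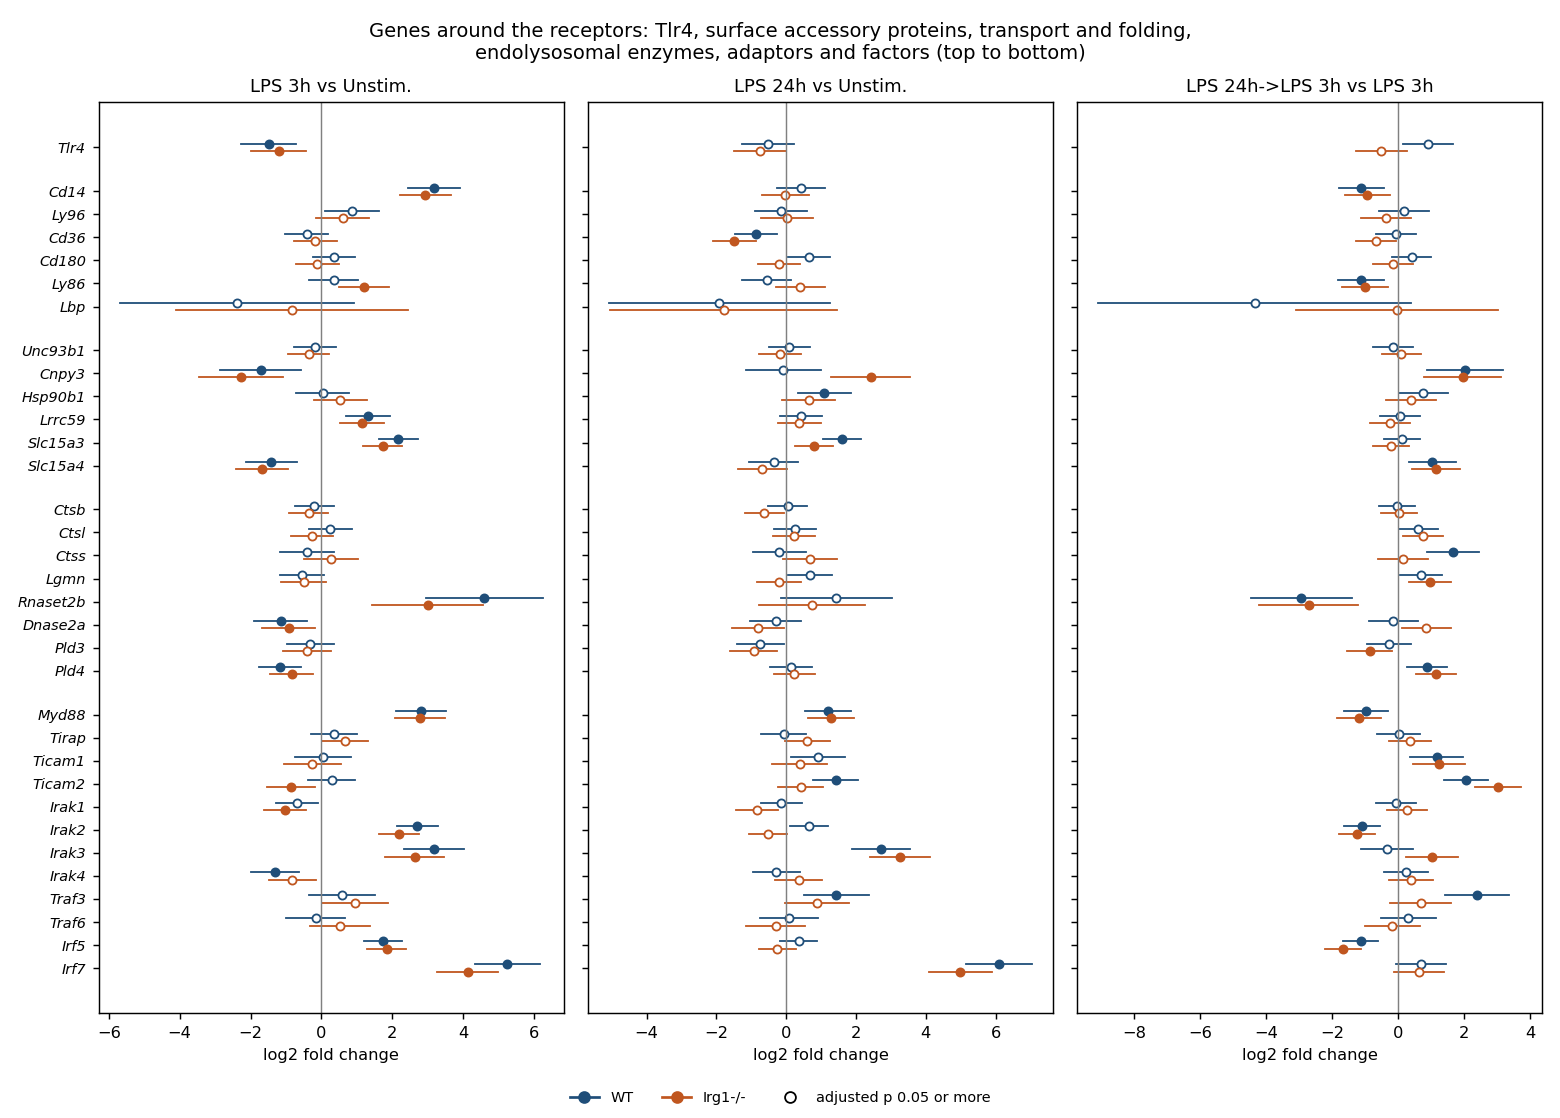
Log2 fold change (point) with its 95% confidence interval (line) of the tested genes of the 5 lists in 3 comparisons, WT in blue and Irg1-/- in orange; filled points passed an adjusted p of 0.05. Irf7 lies furthest right at 3 h (5.25 and 4.13) and at 24 h (6.09 and 4.99), and Cd14 is right of 0 at 3 h and left of 0 in tolerized against non-tolerized cells.

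Across the 24 libraries, which share treatments and depth, the receptors followed several patterns. As a description, the log2 CPM of Tlr2 had a Pearson correlation of -0.81 with Tlr13, -0.79 with Tlr9 and 0.67 with Tlr7, whereas Tlr9 and Tlr13 had 0.75 with each other and Tlr7 and Tlr9 -0.88. The neighbours Tlr7 and Tlr8 reached 0.54 and the neighbours Tlr1 and Tlr6 0.58. Among 10758 genes compared, the pair most like Tlr2 was Notch2 (0.98) and Stx6 (0.97), that most like Tlr1 Pid1 (0.95) and Slc31a1 (0.94), and that most like Tlr3 Aftph and Mxd1 (both 0.93). Tlr6 was nearest to Zfp429 (0.86) and Hspa1a (0.78), Tlr7 to Rnf125 (0.93) and Ccng2 (0.91) and Tlr8 to Mertk (0.84) and Lars2 (0.79). Tlr9 was nearest to Jade1 and Mblac1 (both 0.90), and Tlr13 to Pgp (0.93) and Plekhm1 (0.92).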

How the data were processed

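The deposited table holds raw read counts per gene, made by the authors from 3' end libraries (barcoded oligo-dT priming, no molecular identifiers, PCR amplification), which they mapped to mm10 with STAR. The STAR version, the counter, the annotation and the strand setting are not given in the sources used here. Totals include reads of 5 summary lines, which were left out, so that 48.0% to 59.4% of each column's total lay on genes. Counting error covers neither PCR duplication nor culture differences.

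Counts were analysed with edgeR 4.0.16 and limma 3.58.1 in R 4.3.3 (filterByExpr, which kept 11878 genes, TMM normalization, and the quasi-likelihood F test in 1 model of 8 groups over 24 libraries), with Benjamini-Hochberg adjustment over all genes tested and a threshold of 0.05. Standard errors of log2 fold changes were obtained from the F statistic. CPM used the TMM-scaled library size and are not scaled by gene length, so levels of different genes are not compared. TMM factors were 1.27 to 1.36 in Unstim. libraries and 0.67 to 0.73 in LPS 3h libraries. Smaller differences between these groups, among them those of Tlr6 and Tlr7, depend on that scaling. Every alternative kept a scaling of this kind, so none shows the levels without it. Log2 CPM for correlations used a prior count of 2 and genes with a mean of at least 10 counts. Alternatives were RLE scaling, DESeq2 1.42.0, no filter or a mean of 10 counts, the compared groups alone, library pool or replicate number as a term, and each library left out. The fits were checked on simulated counts, where recovery of most of the larger changes was at first required of every test. Tests of a difference in response recovered fewer and did not meet this. The requirement was then limited to comparisons of a pair of groups.

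The receptors and the lists of pathway and marker genes were chosen with earlier results of these data known, so they are given as counts and medians. Named were the 8 receptors, Acod1, the 2 genes most correlated with each receptor, and from each list the called genes with the highest and lowest log2 fold change; Myd88, Cd14, Slc15a3 and Cnpy3 are also given in other comparisons for their role. Motifs and shared stretches were found with Python 3.11.15 and pandas 2.3.3, in RefSeq promoters and GENCODE transcripts of GRCm38.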

Additional observations from a re-analysis of the deposited data

How the results depend on the processing

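Of 43 calls made for single receptors in treatment comparisons, 29 held under every alternative setting and with each library left out, 10 were lost under an alternative and 7 when a library was left out. Library pool as a term took 9 of them, with counts of receptors past the threshold of 3 for LPS 3h vs Unstim., 1 for LPS 24h vs Unstim. and 3 for LPS 24h vs LPS 3h in Irg1-/- cells, and of 4 in place of 6 for LPS 24h->LPS 3h vs LPS 3h in Irg1-/- cells. Of 53 calls followed for pathway genes it took 19. With only the compared groups fitted the count was 0 for restimulation of the WT and 1 for LPS 24h vs Unstim. in Irg1-/- cells, and with the DESeq2 Wald test it was 2 for restimulation of the WT. The cause was not tested. The share of all genes passing under these settings is not given, so a loss over all genes cannot be told apart from one among the receptors. Pool coincides in part with treatment, which limits that term.

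Leaving out a library gave counts from 2 to 4 (LPS 24h vs Unstim., WT), 0 to 2 (the same, Irg1-/-), 1 to 2 (restimulation, WT) and 1 to 2 (restimulation, Irg1-/-). Tlr2 at 24 h against Unstim., near 0 and not called, ran from -0.42 to 0.25 over left-out libraries in the WT, changing sign to 0.23 without LPS 24h replicate 3 and to 0.25 without Unstim. replicate 3, and changed to -0.62 in Irg1-/- cells with library pool as a term. No other receptor value given changed sign.

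The replicate numbers were not taken to pair cultures in the main fit. Deviations were correlated above 0.1 in 5 of 36 same-numbered pairs within a genotype and in 11 of 48 across genotypes. Among different-numbered pairs this held for 6 of 72 and 7 of 96, smaller shares, so pairing by number was not excluded. The replicate block changed no receptor's call: 5 receptors passed for LPS 3h vs Unstim. in the WT and 7 in Irg1-/- cells, as without it. It ended 4 pathway calls, Cnpy3 between genotypes at LPS 24h (adjusted p = 0.061), Ctss on restimulation of the WT (0.079), Hsp90b1 at 24 h in the WT (0.067) and Dnase2a at 3 h in Irg1-/- cells (0.062). Depth limits Tlr6 most, at 23 to 189 reads a library.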
